A study of Mus musculus with 65 samples.

Results

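The inner retinal neuron markers are 37 genes by which the bipolar, horizontal, amacrine and ganglion cells of the mouse retina are usually recognised. They were taken from a written list by gene symbol, through the symbols that go with the Ensembl identifiers of the count table, and all 37 were found among its 50686 genes. The list holds 9 bipolar cell markers, 5 horizontal cell markers, 12 amacrine cell markers and 11 ganglion cell markers.

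Whole retinas of 65 adult wild-type mice, all of the strain C57BL/6J, were sequenced as bulk RNA in 16 groups. Microglia, the resident immune cells of the retina, were removed by a diet containing PLX5622, an inhibitor of the CSF1 receptor on which they depend, and returned after the diet ended. The sequencing addressed whether the returned cells act like those they replace, at rest and after an inflammatory challenge. The control diet group (CD, n = 5) was labelled vehicle, with the label of its replicate 2M giving 2 months as those of REPOP60 do, and the depletion groups PLX5622. The depletion groups were taken after 2, 5, 7, 10, 14 or 21 days of the drug diet (DEP2 to DEP21, n = 4 each, but n = 3 in DEP5). The repopulation groups were taken 3, 5, 7, 10, 14 or 21 days after the return to control diet (REPOP3 to REPOP21, n = 4 each, but n = 6 in REPOP7) or 2 months after it (REPOP60, n = 4). A pair of groups received lipopolysaccharide (LPS), a bacterial cell wall component that activates microglia, either on control diet with resident microglia (LPSCD, n = 3) or with repopulated microglia (LPSREPOP, n = 4, labelled PLX5622 + LPS). The labels do not say how long the LPSREPOP retinas had repopulated. All mice carried their own genes unaltered, and PLX5622 also reaches the rest of the body, so the treatment is not limited to the eye.

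Bipolar cells carry the signal of rods and cones inward, and they fall into ON types, which use the glutamate receptor Grm6 and the channel Trpm1 to respond to light onset, and OFF types. Horizontal cells feed back onto photoreceptors, and amacrine cells shape the signal between bipolar and ganglion cells with GABA, glycine, acetylcholine or dopamine. Ganglion cells send the result to the brain through the optic nerve, and their long axons are rich in neurofilaments. Several of these markers are shared between classes in the mouse retina. Isl1 is also found in ganglion and some amacrine cells, Prox1 in AII amacrine and bipolar cells, Calb1 and Calb2 in more than 1 class, and Pax6 in ganglion and horizontal cells, so a class list describes its genes and not a count of cells. In bulk RNA, fewer cells of a type and less RNA per cell cannot be told apart.

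Libraries held between 5106429 counts (REPOP21 replicate 1) and 8760443 counts (median 7944665). Levels are given as CPM, the counts of a gene as a share of its library size, adjusted in each mouse by a scaling factor (TMM). Before that adjustment, 3 counts amount to 0.342 to 0.587 CPM, a limit for counting error alone. The titles of 39 mice end in RE and those of 26 in re, and what the suffix stands for is not explained by the labels. Over 12346 genes averaging 5 CPM or more, the first principal component (55.9% of the variance) placed all RE mice apart from all re mice. DEP5 was RE only, REPOP60 and both LPS groups were re only, CD had 2 re mice among its 5, REPOP7 had 3 among its 6, and the remaining depletion and repopulation groups had 1 each. The suffix was therefore a term of every comparison whose groups hold both, and values of RE and re mice are given apart.

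Every marker was detected with more than 3 counts in every mouse, so each of the 4 classes was represented in every retina by its full list. Levels between genes are compared in the deposited FPKM values, which account for transcript length. Among the bipolar cell markers, Pcp2, a regulator of G protein signalling in ON bipolar cells, was highest with a mean of 130.3 FPKM over the 65 mice (range 79.7 to 196). Trpm1 (61.2), Grm6 (55.3), Prkca (54.6), the protein kinase C of rod bipolar cells, and Cabp5 (52.5), a calcium-binding protein of bipolar cells, lay close together, and the ranges of neighbours in this order overlapped widely. Grik1, a kainate receptor subunit of OFF bipolar cells, followed with 48.7 FPKM, the calcium-binding protein gene Scgn with 38.3 and the LIM homeodomain factor gene Isl1 with 36.5. Vsx1, a homeodomain factor of cone bipolar cells, was the lowest with 7.54 FPKM (5.41 to 9.46), below every other bipolar cell marker in all mice.

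The horizontal cell markers were the least abundant class. Prox1 (35.2 FPKM) and the calcium-binding protein gene Calb1 (13.7) stood above Lhx1 (2.40), Onecut1 (2.13) and Onecut2 (0.812), which are transcription factors of horizontal cells. The ranges of Lhx1 (1.30 to 3.20) and Onecut1 (0.995 to 2.79) overlapped over most of their length.

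Amacrine cell markers spanned the widest range. Calb2 (167 FPKM) and Pax6 (160.4) were the highest of all 37 markers and overlapped in range. Gad1 (80.5) and Gad2 (11.8), the enzymes that make GABA, the glycine transporter gene Slc6a9 (59.8), the vesicular transporter gene for GABA and glycine Slc32a1 (36.7) and the factors Tfap2b (54.6) and Tfap2a (15.5) came next. Genes of rare amacrine types were low. Slc18a3, the vesicular acetylcholine transporter gene, had 4.33 FPKM and Chat, the enzyme that makes acetylcholine, had 4.08. Both are genes of the starburst cells. Slc17a8, the glutamate transporter VGLUT3, had 3.90 and Th, the dopamine-synthesis enzyme, had 2.0.

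Among the ganglion cell markers, the neurofilament light chain gene Nefl (117 FPKM) and the surface glycoprotein gene Thy1 (108) were highest and overlapped, followed by Sncg (76.7), Nefm (40.4), Nefh (24.9) and Rbpms (24.6). The glutamate transporter gene Slc17a6 had 14.8 FPKM and the POU factors Pou4f1, Pou4f2 and Pou4f3 had 9.69, 4.03 and 2.06. Opn4, the melanopsin of the intrinsically photosensitive ganglion cells, was the lowest with 2.05 FPKM. For a few markers, how reads on exon bases shared with neighbours were counted is not known. The settings of the counting are not given in the sources used here. Nefl and Nefm share 1108 exon bases on opposite strands, Pcp2 shares 941 with Pet100, Slc6a9 shares 1986 with its neighbours and Onecut1 shares 2171 with Gm20649 on the same strand, and Slc18a3 lies within the span of Chat.

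**Figure D1:**
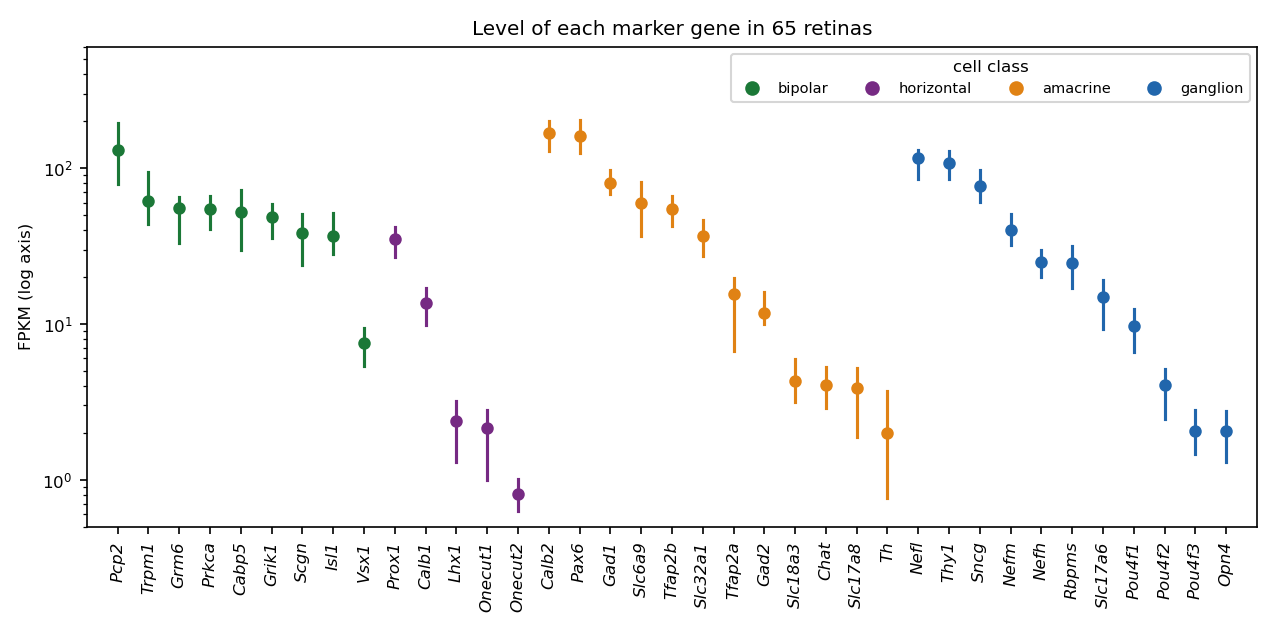
Each point is the mean FPKM of 1 marker gene over 65 mice on a log axis, and the line runs from the lowest to the highest mouse, with colours for the cell classes. Levels run from 0.812 FPKM for Onecut2 to 167 FPKM for Calb2, and 34 of the 37 markers had a mean CPM of at least 5.

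Within mice of 1 group and suffix, the 34 markers with a mean CPM of at least 5 varied about as much as other genes of that level, with a median SD of 0.14 on the log2(CPM + 1) scale beside 0.15 over 12346 genes. The steadiest marker of each class was Gad1 (SD 0.073) for amacrine, Nefl (0.081) for ganglion, Grik1 (0.095) for bipolar and Prox1 (0.098) for horizontal cells. The most variable were Slc18a3 (0.26), Nefh (0.24), Onecut2 (0.20) and Grm6 (0.18). Onecut1, Th and Opn4, with mean levels of 4.39, 3.27 and 4.06 CPM, lay under 5 CPM.

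The largest differences among the markers were between RE and re mice at equal group. In a fit of all 65 mice, 28 of the 37 markers differed by suffix at a false discovery rate (FDR, Benjamini-Hochberg over all genes tested) under 0.05 in edgeR's quasi-likelihood test, 18 being higher in RE mice and 10 in re mice. This was a difference shared with the rest of the transcriptome, as 45.5% of the 28211 genes tested and 75% of those with a mean CPM of at least 5 were called. Higher in RE mice were 21.8% and lower 23.7% of all genes tested, and 50.2% had an unadjusted p under 0.05. No marker passed the stricter rule of the study for differential expression (log2 fold change of over 1 in size at an FDR under 0.01), which 3.31% of all genes tested did. Of the bipolar cell markers 5 were higher and 1 lower in RE mice, of the horizontal cell markers 2 and 1, of the amacrine cell markers 6 and 6, and of the ganglion cell markers 5 and 2.

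Cabp5 differed most, with 93.0 to 156 CPM in the 39 RE mice (median 130.2) and 57.6 to 84.5 in the 26 re mice (median 72.0). The ranges did not overlap, and the log2 fold change of RE over re was 0.78 (SE 0.044, FDR 4.2e-24). Calb1 ranged from 58.2 to 95.9 CPM in RE mice and from 38 to 53.0 in re mice, again without overlap (0.75, SE 0.046, FDR 1.6e-22). Slc17a8 had 19.2 to 30.9 CPM against 8.53 to 19.1 (0.64, SE 0.056) and Slc17a6 60.7 to 88.1 against 37.1 to 58.2 (0.47, SE 0.035). Scgn had 57.0 to 71.9 against 34.6 to 55.6 CPM (0.35, SE 0.034). In these 5 genes the lowest RE mouse was above the highest re mouse.

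The opposite order was found for 3 transporter genes of amacrine cells. Slc32a1 had 51.0 to 101 CPM in RE mice and 106 to 132 in re mice, without overlap, and a log2 fold change of -0.63 (SE 0.058). Slc18a3 had 3.85 to 12 CPM (median 6.94) in RE mice and 9.81 to 13.8 (median 11.3) in re mice, with a log2 fold change of -0.71 (SE 0.083). Slc6a9 followed with -0.51 (SE 0.053), with 143 to 268 CPM in RE mice and 231 to 303 in re mice, so that its ranges overlapped. Opn4 (-0.44, SE 0.10) and Th (-0.36, SE 0.12) were lower and Sncg (0.47, SE 0.056) and Gad2 (0.32, SE 0.033) and Gad1 (0.07) higher in RE mice. In all, 6 of the 34 markers with a mean CPM of at least 5 (17.6%) did not overlap between the suffixes, beside 6.54% of 12346 genes, of which 556 lay above and 251 below.

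The direction of the suffix difference followed the base composition of the transcripts. Among all genes averaging 5 CPM or more, split into 5 equal sets by the GC content of the transcript, the median log2 fold change of RE over re went from 0.35 in the set of lowest GC to 0.15, 0.02, -0.12 and -0.28 in the set of highest GC. Across genes, Spearman's rho between GC content and this fold change was -0.67 over 11371 genes and -0.54 over the 34 markers, which all come from the same 65 libraries. The median GC content was 48.2% for the 18 markers higher in RE mice, 52.5% for the 9 not called and 56.3% for the 10 higher in re mice. Sncg (56.6%), Nefh (58.4%) and Pcp2 (57.3%) went against this order, as they were high in GC and higher in RE mice. RNA quality values were not among the labels, and the share of counts from mitochondrial genes was 3.97% to 5.23% in RE mice and 2.98% to 3.63% in re mice. Whether library preparation, base composition or tissue caused the suffix difference was not tested.

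The first 90 coding bases of 4 markers are shown, chosen as the extremes of the suffix difference among the markers. Slc18a3 and Slc32a1 had the lowest and Calb1 and Cabp5 the highest log2 fold changes of RE over re. They were read from GENCODE M21 transcripts on GRCm38, with every G and C in capitals. Slc18a3 (chr14:32462438-32464850, minus strand) has a transcript GC content of 61.2% and Slc32a1 (chr2:158610767-158615748, plus strand) of 61.9%, while Calb1 (chr4:15881264-15908064, plus strand) has 36.8% and Cabp5 (chr7:13398132-13408887, plus strand) 45.5%. In the stretches printed here, G and C make up 71.1% in Slc18a3, 62.2% in Slc32a1, 48.9% in Calb1 and 51.1% in Cabp5.
Slc18a3: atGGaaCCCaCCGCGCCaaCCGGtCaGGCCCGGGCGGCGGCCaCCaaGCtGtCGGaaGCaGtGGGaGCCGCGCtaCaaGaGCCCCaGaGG
Slc32a1: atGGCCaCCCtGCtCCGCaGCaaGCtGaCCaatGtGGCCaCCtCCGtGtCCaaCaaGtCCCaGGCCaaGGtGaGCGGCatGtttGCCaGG
Calb1: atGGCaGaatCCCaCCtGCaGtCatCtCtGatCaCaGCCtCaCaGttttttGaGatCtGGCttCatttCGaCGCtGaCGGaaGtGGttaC
Cabp5: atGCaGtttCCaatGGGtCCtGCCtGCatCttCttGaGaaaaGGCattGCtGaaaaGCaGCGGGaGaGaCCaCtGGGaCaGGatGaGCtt

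**Figure D2:**
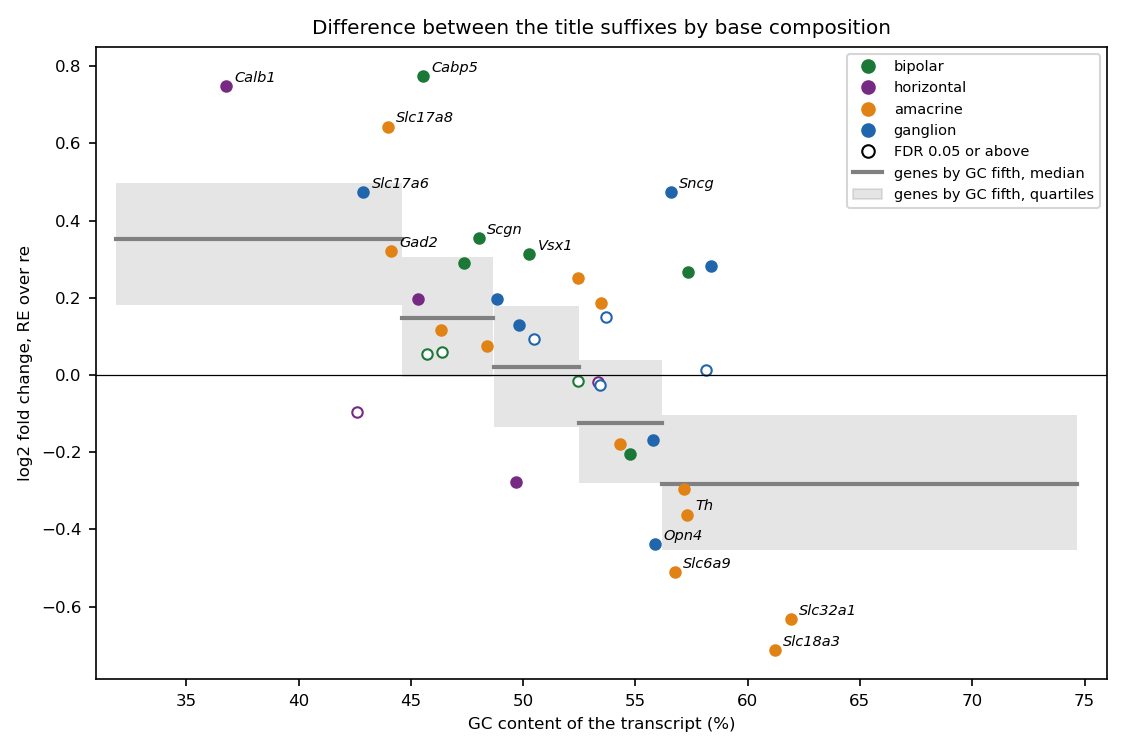
Each circle is 1 marker gene, with the GC content of its transcript in percent on the x axis and the log2 fold change of RE over re mice from the fit of 65 mice on the y axis, filled where the FDR was under 0.05. Grey lines and bands give the median and quartiles of all genes averaging 5 CPM or more in each of the 5 sets by GC content, from 0.35 to -0.28, and the 2 markers lowest on the plot, Slc18a3 and Slc32a1, lie far to the right.

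Taken by class, the mean log2(CPM + 1) of the markers was higher in RE than in re mice by 0.25 for bipolar, 0.16 for horizontal and 0.14 for ganglion cells, and lower by 0.05 for amacrine cells, where the large differences of single genes had opposite signs. These are descriptions of the mice as grouped, without a test. They were taken over all mice and not at equal group, and REPOP60 and both LPS groups were re only.

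**Figure D3:**
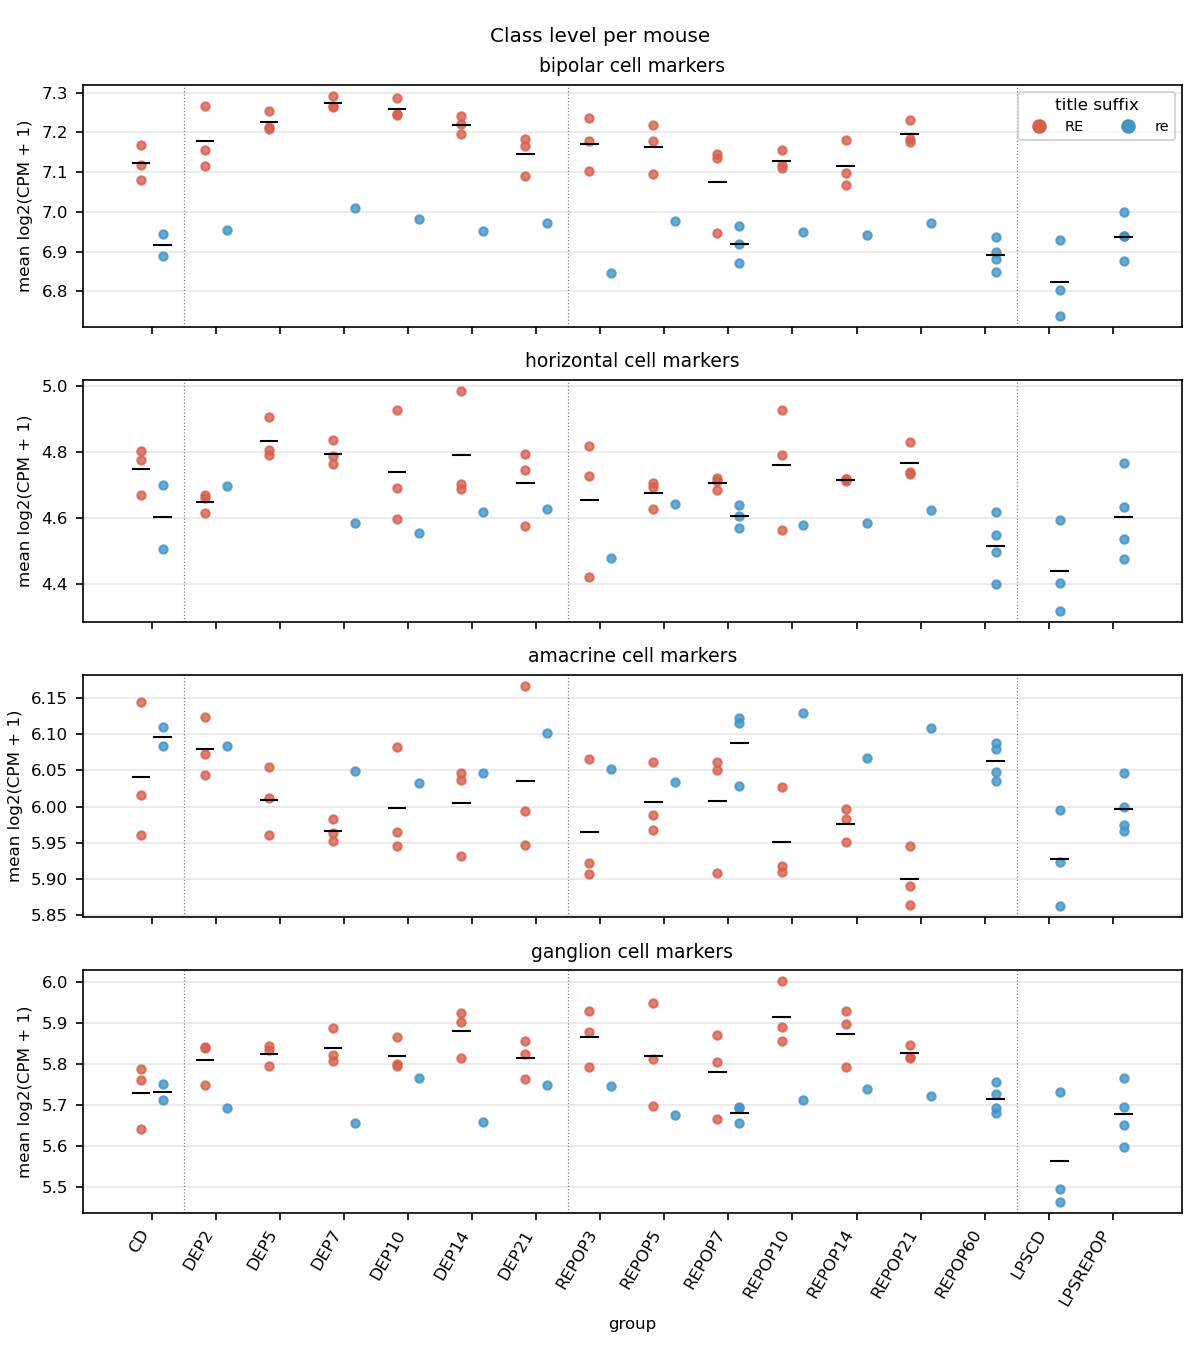
Each point is 1 mouse, with the mean log2(CPM + 1) over the markers of a class on the y axis, the 16 groups on the x axis and the title suffix as colour, and black lines are means of 2 or more mice of a group and suffix. The y axes do not start at 0. Bipolar cell markers of all RE mice but 1 lie above those of the re mice of every group, by 0.25 on average, and for amacrine cell markers the RE mean lies below the re mean in each of the 12 groups that hold both.

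Against this background, the markers moved little during depletion and repopulation. The 13 groups without LPS were each compared with CD, which gave 481 tests of a marker. In 413 of them (85.9%) the log2 fold change was under 0.2 in size and in 1 it was above 0.5, with a median SE of 0.084. Only 4 of the 481 tests, of 4 markers, (beside 0.237% of the tests of all genes) passed an FDR of 0.05, which were Cabp5 in DEP10 and Slc32a1, Slc6a9 and Nefh in REPOP21, and none passed the stricter rule, which 0.0484% of the tests of all genes did. At an unadjusted p under 0.05 there were 62 (12.9%), beside 6.57% of the 309686 tests of all genes. The 13 comparisons share the same 5 CD mice, so they are not independent of each other.

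The comparisons differed in how many genes of the whole retina were called and how many had an unadjusted p under 0.05. In depletion, the 2 shares of all genes tested were 0.109% and 4.47% for DEP2, 0.0646% and 4.14% for DEP5, and 0.108% and 8.2% for DEP7. They were 0.096% and 6.38% for DEP10, 0.067% and 4.74% for DEP14, and 0.139% and 4.14% for DEP21. In repopulation they were 0.0629% and 5.19% for REPOP3, 0.0756% and 6.73% for REPOP5, 0.089% and 5.72% for REPOP7, and 0.365% and 12.2% for REPOP10. REPOP14 (0.0125% and 3.42%) and REPOP60 (0% and 3.22%) had the fewest and REPOP21 (1.9% and 16.8%) the most. Beside the neurons, the microglial list of 20 genes was lowered by design. Its summed level was 72.8 to 93.9 CPM in RE mice of CD, 25.5 to 30.1 in DEP10, 33.6 to 47.9 in REPOP10 and 61.7 to 71.2 in REPOP21. In re mice it was 75.8 and 79.5 CPM in CD, 31.1 in DEP10, 36.6 in REPOP10 and 67.6 in REPOP21.

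Bipolar cell markers accounted for 28 of the 62 tests with an unadjusted p under 0.05, 23 higher and 5 lower than CD. This is 23.9% of their 117 tests, beside 8.04% of the tests of all genes averaging 5 CPM or more, of which 6279 were higher and 6625 lower. Cabp5 was above CD in 12 of the 13 comparisons, and its log2 fold change in the depletion groups ran from 0.25 to 0.36. In CD it had 101, 106 and 123 CPM in RE mice and 67.6 and 72.9 in re mice. In DEP10 it had 137, 145 and 156 CPM in RE mice and 84.2 in the re mouse, above all CD mice of the same suffix, and it was called there (0.36, SE 0.073, FDR 0.043). Over the 18 RE mice of all depletion groups Cabp5 ranged from 109 to 156 CPM (median 138), overlapping the CD mice at the lower end, and the 5 re mice from 73.4 to 84.2 lay above both re mice of CD.

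The mean of the 6 depletion groups against CD gave Cabp5 a log2 fold change of 0.26 (SE 0.068, FDR 0.12), the largest of the markers in that comparison. There 0 of 37 markers and 0.209% of all genes tested were called by edgeR, 5 markers had an unadjusted p under 0.05 (beside 5.41% of all genes tested), all of them higher, and DESeq2 also called 0. The Cabp5 call in DEP10 was fragile. It was lost without any 1 of the 9 mice (FDR 0.0501 to 0.86), with RE mice alone (0.40, FDR 0.33), without the suffix term (FDR 0.94) and with an offset for GC content (0.32, FDR 0.13). With a replicate block in place of the suffix term, which pairs mice of the same number, the FDR was 3.2e-05. The numbers name different mice, however. Among RE mice alone, same-numbered mice of DEP10 and CD correlated by -0.18 to 0.40, so a pairing of these mice is not shown. GC content and the fold changes of all genes in DEP10 correlated by a Spearman's rho of -0.44 over 11371 genes.

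Trpm1 and Prkca, which were chosen after their values were seen, were each above CD in 12 of the 13 comparisons, by at most 0.20 and 0.18, and Grm6 was below CD in all 13 (-0.02 to -0.30). None of these was called in any of them. In DEP7, 0 of 37 markers were called by edgeR and by DESeq2, while 12 (beside 8.2% of all genes tested) had an unadjusted p under 0.05. A fit with the replicate block gave 3 (beside 0.775% of all genes tested), namely Slc32a1 (-0.34), Cabp5 (0.32) and Isl1 (0.27). DEP14 likewise had 0 calls by edgeR and DESeq2, 4 markers with an unadjusted p under 0.05 and, with the block, 1 call, again Cabp5 (0.29), beside 0.641% of all genes. Among RE mice alone, same-numbered mice correlated with those of CD by -0.17 to 0.0081 in DEP7 and by 0.025 to 0.61 in DEP14. The block calls therefore do not rest on a pairing shown in the data. Without CD replicate 2M, DEP7 had 2 calls, Cabp5 (0.31) and Slc32a1 (-0.34), beside 0.175% of all genes.

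Horizontal cell markers gave 3 of the 62 tests with an unadjusted p under 0.05, which is 4.62% of their 65. Onecut2 showed the largest change of any marker with a mean CPM of at least 5 in DEP5, with 11.4, 13.1 and 15.4 CPM against 8.92, 9.41 and 12 in RE mice of CD (0.39, not called). The groups overlapped by 1 mouse. Onecut1 had the largest fold change of all 481 tests, in REPOP60 (-0.55, SE 0.23, FDR 1), with 3.11 to 4.79 CPM against 5.02 and 6.32 in the re mice of CD. At 15 to 53 counts per mouse this gene is read at low depth.

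Amacrine cell markers gave 18 tests with an unadjusted p under 0.05, of which 16 were lower than CD. This is 11.5% of their 156 tests, beside the 8.04% of all genes averaging 5 CPM or more. Slc32a1, Slc6a9 and Slc18a3 were below CD in all 13 comparisons, by 0.02 to 0.39, 0.02 to 0.34 and 0.01 to 0.47 on the log2 scale. These are also the 3 markers that were lowest in RE relative to re mice. The calls were in REPOP21. Slc32a1 had 82.0, 84.4 and 98.3 CPM in RE mice of CD and 55.0, 55.1 and 72.2 in RE mice of REPOP21, without overlap, but 124 and 125 in re mice of CD and 121 in the re mouse of REPOP21 (-0.39, SE 0.091, FDR 0.026). Slc6a9 behaved in the same way, with 207, 248 and 257 CPM in RE mice of CD and 159, 171 and 185 in RE mice of REPOP21, beside 292 and 296 in re mice of CD and 289 in the re mouse of REPOP21 (-0.34, SE 0.076, FDR 0.022). In both genes the 3 RE mice of REPOP21 lay below the CD range and the re mouse lay close to the re mice of CD. Slc18a3 was the marker with the largest change in REPOP21 (-0.47, SE 0.17, FDR 0.15), with 5.13, 5.14 and 6.94 CPM against 6.45, 8.80 and 12 in RE mice of CD and 11.3 against 10.6 and 12.4 in re mice, and was not called. The enzymes Gad1 (-0.05 to 0.09) and Gad2 (-0.01 to 0.11), which make the GABA that Slc32a1 loads into vesicles, had no call in any of the 13 comparisons.

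Ganglion cell markers gave 13 tests with an unadjusted p under 0.05, of which 10 were higher than CD. This is 9.09% of their 143 tests, near the 8.04% of all genes averaging 5 CPM or more. Nefh was called in REPOP21 with 119, 122 and 148 CPM in RE mice of CD and 165, 172 and 201 in RE mice of REPOP21, beside 117 and 121 in re mice of CD and 125 in the re mouse (0.34, SE 0.081, FDR 0.028). All RE mice of REPOP21 lay above the range of CD, and the re mouse lay slightly above both re mice of CD. In REPOP10 Nefh had 171, 178 and 185 CPM in RE mice and 124 in the re mouse and was not called (0.33, FDR 0.065). Pou4f2 was above CD in all 13 comparisons (0.03 to 0.28) and Thy1 below in all 13 (-0.01 to -0.25), both chosen after their values were seen and neither called. The class level of the ganglion cell markers in RE mice was above CD in 12 of 12 groups, by 0.05 to 0.19, but in re mice in 4 of 12 groups, by -0.08 to 0.04. Those 12 differences rest on the same 3 RE mice of CD, whose class levels were 5.64, 5.76 and 5.79.

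The 3 calls in REPOP21 stand in a comparison in which 3.48% of all genes averaging 5 CPM or more were called. DESeq2 called 4 markers (5.46% of all genes with an adjusted p) and RE mice alone 5 (3.76% of all genes), with log2 fold changes of -0.55 for Slc32a1, -0.47 for Slc6a9 and 0.46 for Nefh. There were 0 calls without CD replicate 2, 3 or 4 and without REPOP21 replicate 2, 3 or 4, when the FDR of these genes was 0.104 to 0.364. Without REPOP21 replicate 1, the re mouse of lowest depth in the series, there were 7, beside 6.45% of all genes. Spearman's rho between GC content and the fold change was -0.49 over 11371 genes, and with an offset for GC content Slc32a1 (-0.22, FDR 0.23) and Slc6a9 (-0.23, FDR 0.14) were no longer called while Nefh was (0.48, FDR 0.011). The rod and cone list was also lower in RE mice of REPOP21, with a summed level of 41816 to 47712 CPM against 49008 to 56718 in CD, while in re mice it was 57685 against 56510 and 60153. In the whole comparison 2 of its 13 genes were called lower, and the astrocyte gene Gfap was called higher. Their part in the marker changes was not tested.

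In REPOP10, 0 of 37 markers were called by edgeR and 2 by DESeq2 (0.806% of all genes with an adjusted p), and 8 had an unadjusted p under 0.05 beside 12.2% of all genes tested. RE mice alone gave 4 calls (beside 1.91% of all genes), the fit without REPOP10 replicate 1, its re mouse, gave 5 (3.52%) and that without CD replicate 2M gave 2 (0.844%). REPOP14, REPOP3, REPOP5, REPOP7 and REPOP60 had 0 calls by edgeR and by DESeq2, with 2, 2, 4, 3 and 1 markers at an unadjusted p under 0.05. DEP2, DEP5 and DEP21 had 0 calls by both tools too, with 2, 5 and 2. In REPOP60, which rests on the re mice of CD, Chat was the largest change among markers with a mean CPM of at least 5 (-0.21).

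**Figure D4:**
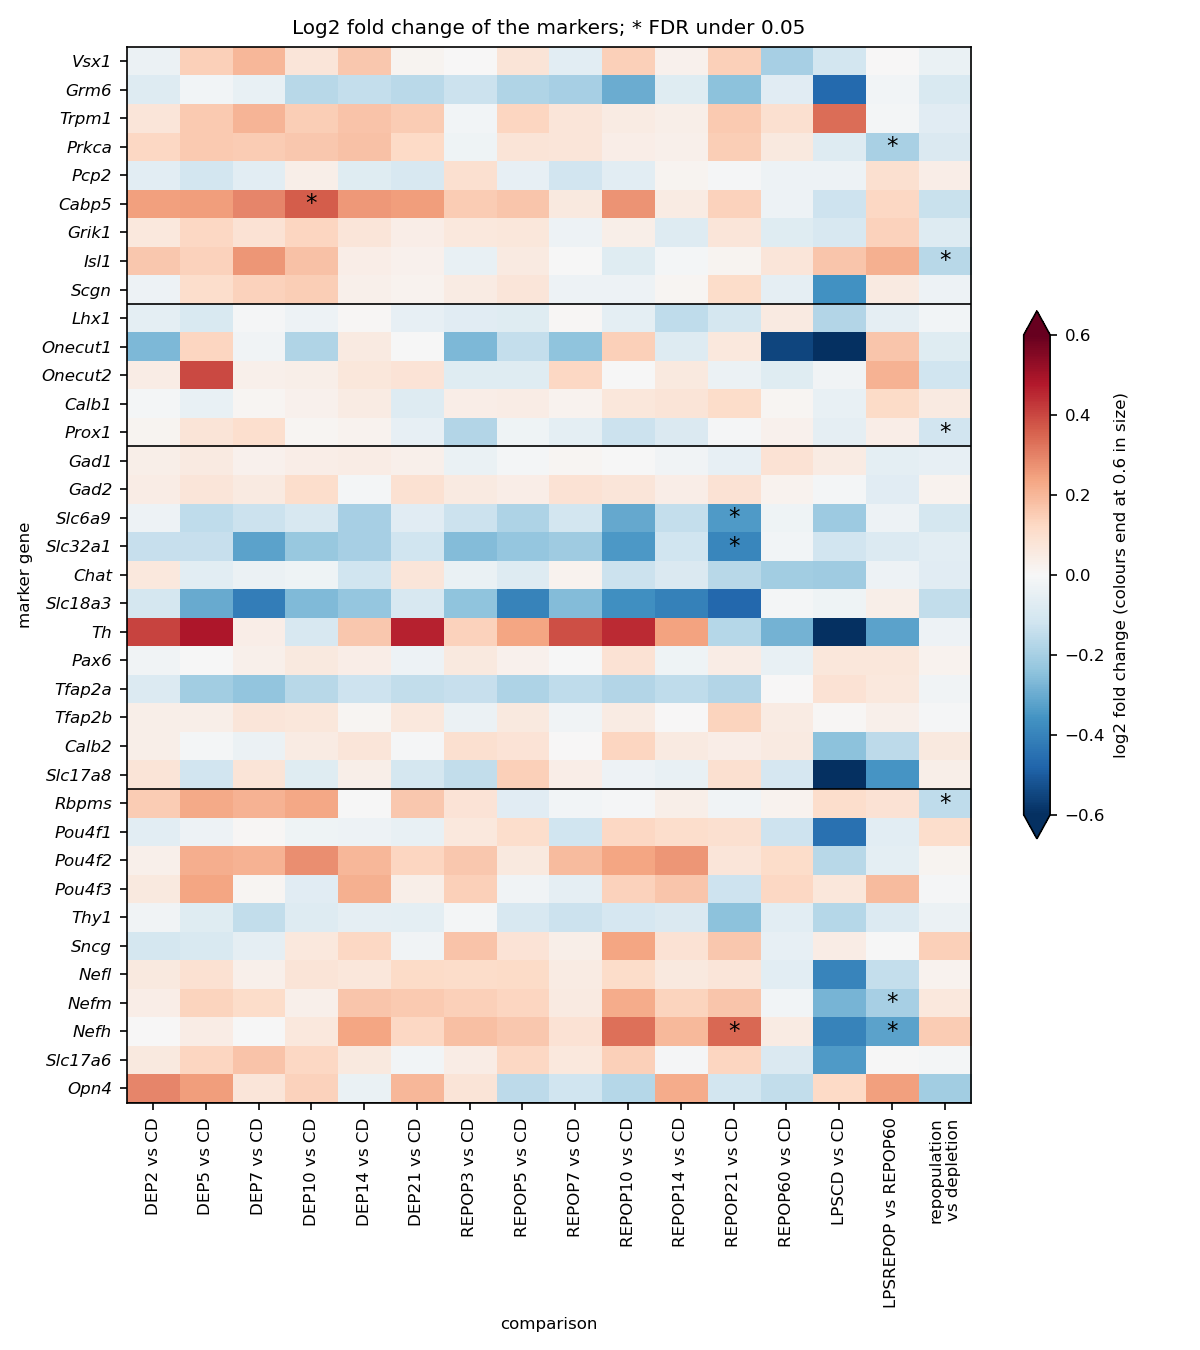
Rows are the 37 markers in class order and columns the comparisons, with colours for the log2 fold change and a star for an FDR under 0.05. Most cells are pale, since 413 of the 481 tests against CD were under 0.2 in size and the stars mark Cabp5 in DEP10 and 3 markers each in REPOP21, LPSREPOP and the repopulation column.

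Setting the mean of the 7 repopulation groups against the mean of the 6 depletion groups, 3 of 37 markers were called, beside 0.705% of all genes tested and 1.33% of those with a mean CPM of at least 5. All 3 were lower in repopulation, as were 0.269% of all genes tested, and 15 markers had an unadjusted p under 0.05 beside 13.1% of all genes. Isl1, which marks bipolar and ganglion cells, had 76.9 to 113 CPM in 18 RE mice of depletion and 75.8 to 92.5 in 18 RE mice of repopulation, beside 83.8 to 91.8 in RE mice of CD. Its log2 fold change was -0.16 (SE 0.035, FDR 0.012). In re mice Isl1 had 79.8 to 95 CPM in depletion and 71.9 to 94.6 in repopulation, so the groups overlapped in both suffixes.

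Rbpms, an RNA-binding protein of ganglion cells, had 36.5 to 51.4 CPM (median 46.1) in RE mice of depletion and 33.6 to 51.7 (median 40.5) in RE mice of repopulation (-0.15, SE 0.036, FDR 0.027). Prox1 had 266 to 335 CPM (median 300.3) and 224 to 302 (median 283) in the same mice (-0.11, SE 0.028, FDR 0.034). These changes amounted to decreases of 7.51% to 10.8%, and the ranges of the mice overlapped. In the re mice alone 0 of the 3 were called (Isl1 -0.05, Rbpms -0.06, Prox1 -0.10), and in the RE mice alone Isl1 was (-0.20, FDR 0.014). The count fell to 1 without DEP5 replicate 1 and without DEP14 replicate 4. Isl1 was called in 53 of 53 fits that left out 1 mouse, Rbpms in 50 and Prox1 in 41. In the same comparison 5 of 13 rod and cone genes were lower and 8 of 20 microglial genes higher, and their part in the marker changes was not tested.

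LPS was examined in re mice, in which the markers could be set against 2 re mice of CD and 4 of REPOP60. In retinas with resident microglia (LPSCD against CD), 0 of 37 markers were called by edgeR and by DESeq2, and 0.0466% of all genes tested were. An unadjusted p under 0.05 was found for 11 markers, 10 of them lower, beside 10.5% of all genes tested. The number of calls rested on LPSCD replicate 1, whose levels were close to CD for several of these genes. Without that mouse 10 markers were called, 9 lower and 1 higher, beside 5.26% of all genes tested. That fit, like the later ones without this mouse, had only replicates 2 and 3 left in LPSCD.

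Grm6 had 217 and 195 CPM in re mice of CD and 216, 123 and 109.9 in LPSCD, where the value of 216 was replicate 1 (-0.47, SE 0.21, FDR 0.45). Without replicate 1 the log2 fold change of Grm6 was -0.83. Pou4f1, a POU factor of ganglion cells chosen after its values were seen, had 36.3 and 40.1 CPM in CD and 35.6, 25.4 and 23.2 in LPSCD, in the same order of mice (-0.45, SE 0.16). Scgn had 45.2 and 55.6 in CD and 46.3, 36.8 and 34.6 in LPSCD. In each of these 3 genes replicate 1 lay at or near the CD level and the other two mice below it. Trpm1 went the opposite way, with 367 and 339 CPM in CD and 352, 515 and 475 in LPSCD (0.34, SE 0.14).

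Slc17a8 and the neurofilament genes were lower in every LPSCD mouse. Slc17a8, the largest change among markers with a mean CPM of at least 5, had 14.7 and 17.8 CPM in CD and 10.2, 11.2 and 8.53 in LPSCD (-0.71, SE 0.16, FDR 0.18). Nefl had 409 and 437 CPM in CD and 365, 306 and 296 in LPSCD (-0.40, SE 0.11). Nefh had 117 and 121 in CD and 96.6, 88.4 and 86.5 in LPSCD (-0.40, SE 0.11, FDR 0.25). No mouse of LPSCD reached the CD range for these 3 genes, and none of them was called with all mice in the fit of both groups. The fit of all 65 mice, which takes its spread from every group, called 8 markers in this comparison, beside 6.43% of all genes tested.

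In retinas with repopulated microglia (LPSREPOP against REPOP60, both re), 3 of 37 markers were called, all lower, beside 2.92% of all genes tested (1.05% lower) and 4.6% of those with a mean CPM of at least 5. Nefh, the neurofilament heavy chain, had 109, 120.2, 127 and 137 CPM in REPOP60 and 86.8, 90.7, 106 and 113 in LPSREPOP (-0.32, SE 0.076, FDR 0.016). Nefm, the medium chain, had 345, 350.3, 357 and 358 CPM against 299, 299, 299 and 333 (-0.20, SE 0.051, FDR 0.028). Prkca had 473, 475, 505 and 538 CPM against 413.8, 428, 435 and 466.3 (-0.20, SE 0.054, FDR 0.046). The groups did not overlap for Nefm and Prkca, and for Nefh 1 mouse of each group did. The third neurofilament gene, Nefl, was at 399 to 419 CPM in REPOP60 and 346 to 396 in LPSREPOP, without overlap, and was not called (-0.14, FDR 0.16), nor was Slc17a8 (-0.36, FDR 0.12), the largest change. An unadjusted p under 0.05 was found for 8 markers, beside 14% of all genes tested.

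The 3 calls amount to decreases of 12.7% to 19.9%. There were 0 calls without REPOP60 replicate 1, 2 or 4 or LPSREPOP replicate 3, 1 without REPOP60 replicate 3 (Nefh, beside 1.28% of all genes) and 5 without LPSREPOP replicate 4 (4.17%), and the fit of all 65 mice called 0 (FDR 0.38 to 0.50). Alongside, the microglial list was higher, with a summed level of 83.5 to 130.4 CPM in LPSREPOP against 64.2 to 71.9 in REPOP60 and 7 of 20 genes called. The endothelial list had 4 of 6 genes called higher, the rod and cone list 2 higher and 1 lower of 13, and Gfap was higher. In LPSCD the microglial list had 138 to 157 CPM against 75.8 to 79.5 in re mice of CD. Their part in the marker changes was not tested.

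The LPS effect with repopulated microglia was then compared with that in control retinas. By the interaction term, 0 of 37 markers and 0% of the 25712 genes tested differed by edgeR, 0 markers by DESeq2, and 8 markers had an unadjusted p under 0.05, beside 5.91% of all genes tested. Grm6 had the largest difference among markers with a mean CPM of at least 5 (0.45, SE 0.21, FDR 0.80), its level in LPSREPOP being 157, 192, 207 and 224 CPM against 190.1 to 202 in REPOP60. Without LPSCD replicate 1 the interaction was called for 5 markers, beside 2.42% of all genes, with Grm6 at 0.82. In the direct comparison of LPSREPOP with LPSCD, 0 markers were called by edgeR and DESeq2 and 0% of all genes tested, 3 markers (beside 8.05% of all genes) had an unadjusted p under 0.05, and without LPSCD replicate 1 there were 5 calls, beside 3.2% of all genes. The effect on the neurofilament genes was of the same sign in both backgrounds, -0.40 and -0.32 for Nefh and -0.28 and -0.20 for Nefm. Nefl was also lower in both, but less so with repopulated microglia, where it was not called. None of the neurofilament genes was called in LPSCD against CD.

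**Figure D5:**
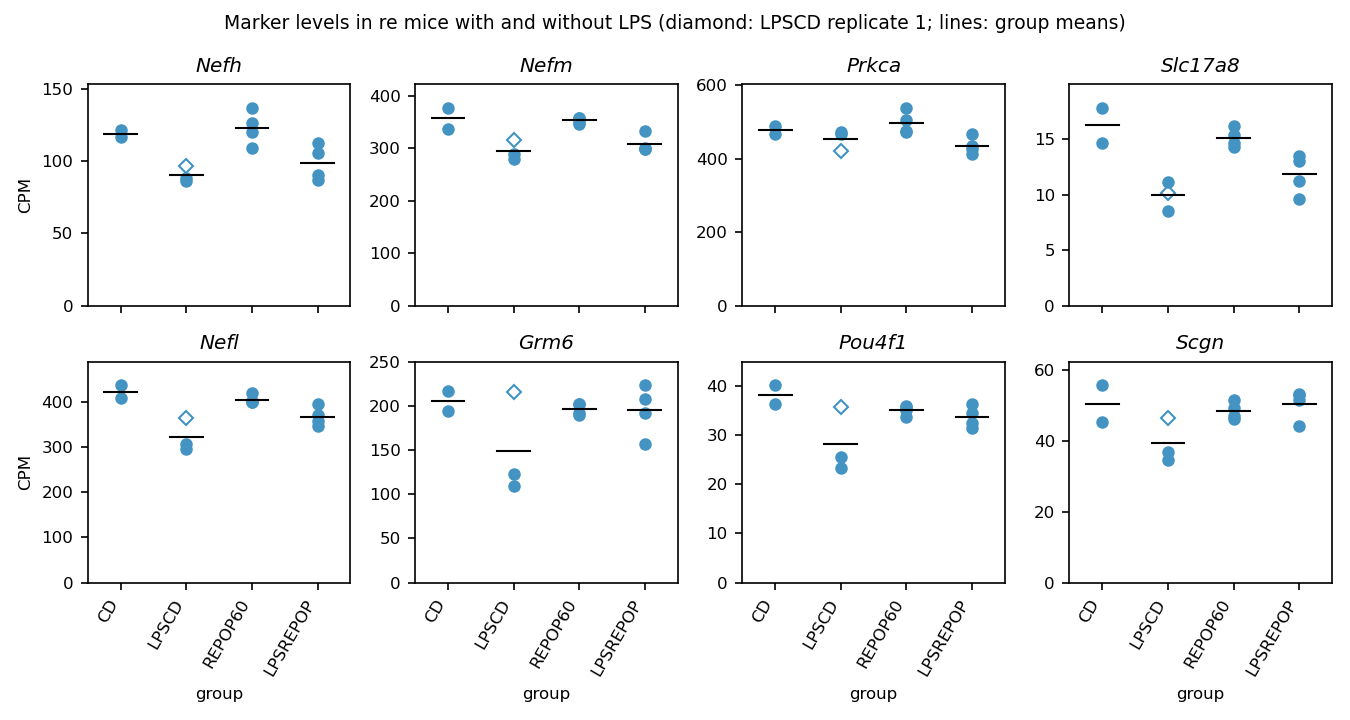
Each panel gives the CPM of 1 marker in re mice of CD, LPSCD, REPOP60 and LPSREPOP, with a point per mouse, a line at the group mean and a diamond for LPSCD replicate 1. For Grm6 the diamond lies at 216 CPM among the CD mice while the other LPSCD mice lie at 123 and 109.9, and for Nefh the highest LPSCD mouse lies at 96.6 CPM.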

How the data were processed

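Total RNA was taken from retinal homogenate of 65 mice and sequenced as 50 bp single-end reads. The authors aligned reads with HISAT2 to mm10, counted them per gene with HTSeq and computed FPKM with StringTie, and versions and the strand setting are not given in the sources used here. The deposited counts are raw whole numbers per gene, and the deposited FPKM values are scaled by the authors to transcript length and library size. FPKM was used only to compare levels between genes. CPM was computed here from the deposited counts, and log2 values used CPM + 1.

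Symbols were found for 50376 of 50686 identifiers. A gene was tested if 0.5 or more of the mice in either group had a count of 1 or more. The test was that of edgeR 4.0.16 (R 4.3.3), with TMM factors, the quasi-likelihood F test and Benjamini-Hochberg adjustment over all genes tested, with group and title suffix as terms. DEP5 therefore rests on the RE mice of CD, and REPOP60 and LPSCD on its re mice, while comparisons among re groups had no suffix term. Pooled means and the suffix difference came from 1 fit of all 65 mice. Fits of the pooled means that left out a mouse kept the dispersion trend of the full fit. Errors are SE, the log2 fold change over the root of F. The procedure was tested on simulated data, where recovery was required only for changes larger than those of the markers. No rate of recovery is given here for changes as small as most of those reported. Figures were drawn with matplotlib 3.10.9, and tables were made with pandas 2.3.3 and numpy 2.4.6 under Python 3.11.15.

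The markers and all gene lists were chosen with earlier results of these data known. Genes were named when called (the 12 largest per comparison), when highest or lowest in mean FPKM or in spread within a class, or when the change was the largest in a comparison among markers with a mean CPM of at least 5. No sample column was left unmapped and no pair of mice was a duplicate, the lowest mean chi-square per gene between mice of a group being 1.36. Nothing in the labels ties mice to litters or cages, so whether mice share either is not known. The p-values take the mice as independent and rest on the spread between the mice of each fit.

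The replicate numbers, read from the descriptions, name different mice. Same-numbered mice correlated by over 0.1 in every pair in DEP2, DEP7, DEP10, DEP14, REPOP3, REPOP5, REPOP10 and REPOP21 against CD (lowest r 0.118), where they also share a suffix, and among RE mice alone only in DEP2. Alternatives were DESeq2 1.42.0, RLE factors, other gene filters, other models, either suffix alone, a stricter call rule, leaving out each mouse and an offset for GC content. The offset was chosen after seeing the data.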

Additional observations from a re-analysis of the deposited data

Results flagged for a closer look

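In 7 of the 70 groups of 4 to 10 mice examined, 1 mouse lay far from the others. This was measured as its gap to the nearest mouse divided by the range of the group. Chance alone gives about 1 in 20 groups of like mice. That rate does not hold for groups that mix RE and re mice, as most groups of the series do. The flagged mouse carried the suffix re in 5 of the 7. For the class level of the bipolar cell markers, mouse 1 was low in DEP7 (share of the range 0.901, level 7.01 against 7.26 in the nearest mouse), in DEP10 (0.857, 6.98 against 7.24) and in DEP14 (0.842, 6.95 against 7.19), and it was the only re mouse of each of these groups. For the horizontal cell markers, mouse 1 of REPOP14, also its only re mouse, was low (0.951, 4.59 against 4.71). For the amacrine cell markers, RE mouse 3 of DEP14 was low (0.912, 5.93 against 6.04).

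Among the single genes, Nefh was high in RE mouse 3 of CD (0.853, 148 CPM against 122), a mouse against which REPOP21 and REPOP10 were compared. Nefm was high in mouse 4 of LPSREPOP (0.991, 333 CPM against 299), which lowers the difference from REPOP60.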

How the results depend on the processing

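Of 194 alternative counts of called markers other than those leaving out a mouse, 156 stayed equal or within 1.5 times and 38 moved. Comparisons with 0 calls in both fits were scored as equal, so the 156 are not a measure of how steady the calls were. No fold change of the called markers named above reversed in sign in these alternatives. The cause of these moves was not tested. For some of these fits the share of all genes called is given above. For the others it is not given, so their counts cannot be told apart from a change in calls over all genes. Without the suffix term there were 0 calls in DEP10 and REPOP21, 3 in LPSCD and 1 in repopulation against depletion. With the replicate block there were 3 in DEP7, 1 in DEP14, 6 in REPOP60 and 3 in LPSCD. There were also 3 in the interaction and 5 in repopulation against depletion, and the block moved no other count by over 1.5 times. In comparisons of groups the block took the place of the suffix term. In REPOP60, LPSCD and the interaction it set re mice beside RE mice of CD that had the same number. Group and suffix cannot be told apart in those counts. With no filter on low counts there were 4 in DEP7, 5 in REPOP10, 6 in REPOP21, 4 in LPSCD, 1 in the interaction, 1 in the depletion mean and 7 in repopulation against depletion. The filterByExpr filter gave 0 in DEP10 and REPOP21, and DESeq2 gave 2 in REPOP10. The fit of all 65 mice gave 0 in DEP10, REPOP21 and LPSREPOP against REPOP60, 8 in LPSCD and 1 in LPSREPOP against LPSCD. RE mice alone gave 0 in DEP10, 4 in REPOP10, 5 in REPOP21 and 1 in repopulation against depletion, where re mice alone gave 0. The GC offset gave 0 in DEP10, 1 in REPOP10 and 1 in REPOP21. The stricter rule gave 0 everywhere, the suffix difference included. On the log2(FPKM + 1) scale the class difference of RE over re fell to 0.14 for bipolar and 0.045 for horizontal cell markers.

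Leaving out 1 mouse at a time gave 0 to 2 calls in DEP7, 0 in DEP10, 0 to 5 in REPOP10, 0 to 7 in REPOP21, 0 to 10 in LPSCD, 0 to 5 in LPSREPOP against REPOP60, against LPSCD and in the interaction, 0 to 1 in the depletion mean (1 without DEP21 replicate 3, Cabp5), 1 to 4 in repopulation against depletion and 28 to 29 for the suffix. All other comparisons stayed at 0. Onecut1, Th and Opn4, with under 5 CPM on average, are limited by depth.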

Other observations

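Of 44 further genes of the same 4 neuron classes, few passed the test outside the suffix difference. In REPOP21, 3 of the 12 further bipolar cell genes were called, all lower, by edgeR with Benjamini-Hochberg adjustment. They were Bhlhe23 (-0.54, FDR 0.013), Rgs11 (-0.35, FDR 0.018) and Gng13 (-0.27, FDR 0.042). In that comparison 1.9% of all genes tested were called (1.33% lower), and 3.48% of those with a mean CPM of at least 5. Between the suffixes, Bhlhe23 (-0.53) and Rgs11 (-0.16) were lower and Gng13 (0.18) higher in RE mice. Penk, the precursor gene of enkephalin, was the 1 further amacrine cell gene called in REPOP10 (1.73, FDR 0.0084), beside 0.365% of all genes tested. It was also the 1 called in LPSREPOP against REPOP60 (2.25, FDR 5.3e-04), beside 2.92% of all genes tested. In the latter, the neuropeptide gene Cartpt was lower (-0.38, FDR 0.0011) and Slc4a3 higher (0.24, FDR 0.011).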
